A study of Mus musculus with 12 samples.

Results

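The genes described here are the FOS family (Fos, Fosb, Fosl1 and Fosl2), the JUN family (Jun, Junb and Jund) and Atf3 in Ocy454 cells, a mouse osteocyte line from long bone. They were chosen by name and found by Ensembl gene ID, and they are 8 of the 37583 gene IDs counted in each library. All 8 passed the filter on low counts that left 14904 genes for testing. RNA-seq was performed on 12 libraries, 3 for each of 4 groups. Control cells are labelled as original cells, and DKO cells as cells with HDAC4 and HDAC5 deleted. Both proteins belong to the class IIa histone deacetylases, which act as repressors of transcription in the nucleus. Each genotype was kept static or exposed for 3 h to fluid flow shear stress (FFSS), the mechanical cue that osteocytes sense in loaded bone. In all groups the cells carry a temperature-sensitive T antigen that is inactivated by warming for differentiation, and the study worked with a sub-clone grown from a single cell. FFSS came from shaking culture plates on a rotating platform. With 1 line per genotype, effects of the deletion and of the line cannot be told apart. The labels do not say whether replicates were separate cultures, so p-values measure the spread between these samples, which may be technical.

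The proteins of these genes are basic leucine zipper transcription factors. FOS proteins cannot pair with each other and bind DNA as dimers with a JUN protein, forming the factor called AP-1, whereas JUN proteins can also pair among themselves. AP-1 binds the TRE site (TGACTCA), and ATF3, a stress-induced relative that can pair with JUN proteins, also binds the related CRE site (TGACGTCA). Fos, Fosb, Jun, Junb and Atf3 are immediate early genes, with mRNAs that rise within minutes of a stimulus and are quickly degraded, so a 3 h sample lies after the usual first peak. In bone, AP-1 proteins are known for roles in osteoblast, chondrocyte and osteoclast differentiation, and mechanical loading is a well-known stimulus of Fos.

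Promoter sequences are shown for 4 members whose levels differed between conditions: Fos and Junb, which lay higher under FFSS in every DKO library, and Jun and Fosb, which lay lower in every DKO library. Each is the 250 bases before the transcription start, 5′ to 3′, from RefSeq on GRCm38.p6. Fos is chr12:85473640-85473889 on the plus strand. Jun is chr4:95052223-95052472, Junb chr8:84978749-84978998 and Fosb chr7:19310046-19310295, all on the minus strand. Capitals mark matches on either strand to the TRE, the CRE, its part TGACGT, the TRE-like element TGACATCA known from Jun, the TATA box (TATAAA), the CCAAT box, or the CArG box that SRF binds. The motifs were chosen after the sequences had been seen.
Fos: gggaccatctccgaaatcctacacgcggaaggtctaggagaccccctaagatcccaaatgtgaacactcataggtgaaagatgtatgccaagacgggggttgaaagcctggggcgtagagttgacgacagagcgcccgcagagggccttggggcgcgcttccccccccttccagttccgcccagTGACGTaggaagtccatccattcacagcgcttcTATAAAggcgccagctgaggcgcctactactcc
Junb: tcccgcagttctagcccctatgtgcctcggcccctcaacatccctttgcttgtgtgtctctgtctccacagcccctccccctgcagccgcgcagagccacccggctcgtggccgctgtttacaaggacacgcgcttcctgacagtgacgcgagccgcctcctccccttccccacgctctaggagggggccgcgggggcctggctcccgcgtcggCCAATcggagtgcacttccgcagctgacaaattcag
Jun: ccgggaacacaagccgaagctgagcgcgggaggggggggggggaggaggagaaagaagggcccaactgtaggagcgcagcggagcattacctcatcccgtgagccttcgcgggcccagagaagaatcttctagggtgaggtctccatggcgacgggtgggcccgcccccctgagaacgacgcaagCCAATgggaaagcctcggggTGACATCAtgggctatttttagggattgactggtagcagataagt
Fosb: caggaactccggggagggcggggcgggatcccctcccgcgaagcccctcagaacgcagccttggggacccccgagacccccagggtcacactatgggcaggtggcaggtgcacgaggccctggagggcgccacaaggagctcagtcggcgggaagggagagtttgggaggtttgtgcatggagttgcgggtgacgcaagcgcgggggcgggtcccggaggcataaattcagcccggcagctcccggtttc

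In the Fos window, TGACGT ended 61 bases before the start and TATAAA 28 bases before it. The Jun window held CCAAT ending 61 bases and TGACATCA ending 38 bases before the start, and that of Junb CCAAT ending 32 bases before it. The Fosb window held no match to these letters, which says nothing of the factors themselves. Entries matched 7 of the 8 members, Fosl1 being the other. Among the windows not printed, those of Fosl2 and Jund held no match, and Atf3 had TGACGT on the strand opposite the gene, 8 to 3 bases before its start. Of all 32851 promoter windows of this length, 4.46% held TGACTCA, 1.55% TGACGTCA, 6.47% TGACGT, 2.93% TGACATCA, 12.4% TATAAA, 33.8% CCAAT and 1.47% a CArG box. A match is a run of letters and not a bound site.

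On mm9, the build the reads were counted on, Fos (ENSMUSG00000021250) lies at chr12:86814840-86818223 on the plus strand, Fosb (ENSMUSG00000003545) at chr7:19888070-19895394 on the minus strand, and Fosl2 (ENSMUSG00000029135) at chr5:32438845-32460204 on the plus strand. Jun (ENSMUSG00000052684) lies at chr4:94715725-94718913 and Junb (ENSMUSG00000052837) at chr8:87500811-87502617, both on the minus strand, and Junb has 1 exon. Jund (ENSMUSG00000071076) lies at chr8:73221638-73224515 on the plus strand and Atf3 (ENSMUSG00000026628) at chr1:192994175-193007219 on the minus strand. Fosl1 (ENSMUSG00000024912), at chr19:5447703-5455945 on the plus strand, shares 1162 of its 1707 exonic bases with Ccdc85b on the other strand. Counting ignored strand, so Fosl1 values rest on the remaining 545 bases and are uncertain where those bases hold Ccdc85b reads. Jund likewise shares 543 of 2878 exonic bases with Gm11175 and Jun 232 of 3189 with BC042782, each on the other strand, and these bases were left out of the lengths used below.

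Libraries held between 17.6 and 19.2 M reads in genes, and 3 counts corresponded to between 0.156 and 0.171 CPM, which is the count scaled to the library total. These limits cover counting error only. Control FFSS replicate 1 stood apart from the other two. The chi-square per degree of freedom between its counts and those of replicates 2 and 3 was 63.8 and 58.0, against 6.45 between replicates 2 and 3 and 2.02 to 5.66 for pairs in other groups. Whether that library differed in its exposure to FFSS or in its preparation cannot be told apart here, and it enters every control FFSS mean and contrast below. The share of reads outside annotated genes was 5.87% in that library, 9.19% and 10.04% in the other control FFSS libraries, 5.10% to 5.21% in control static, 7.07% to 7.14% in DKO static and 7.93% to 8.55% in DKO FFSS cells. It was higher under FFSS in every library of each genotype (exact two-sided permutation p = 0.1 in each, the smallest p that 3 against 3 allows). The 2 Hdac4 gene IDs and Hdac5 were reduced and not lost in DKO static cells, with Hdac5 at 84.5 ± 5.54 CPM against 133 ± 7.05 (SD, n = 3). Under FFSS both Hdac4 IDs were lower in DKO cells, but Hdac5 was not, at 92.8 ± 0.456 against 81.2 ± 9.57 CPM (log2 fold change 0.19, adjusted p = 0.0512), so the Hdac5 transcript does not follow the genotype label there.

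Marker genes of several cell types were measured beside the members. Of 9 osteocyte markers, 6 were higher and 1 lower in DKO static than in control static cells, where 27% and 27.2% of all genes were. Sost (2063 ± 30.2 against 5.35 ± 6.14 CPM) and Dmp1 (582.4 ± 30.02 against 29.4 ± 7.41 CPM) were among the higher, Pdpn was lower (5.11 ± 0.150 against 28.4 ± 0.847 CPM), and Ibsp and Alpl did not pass. Of 7 chondrocyte markers, read against the same shares of all genes, 4 were higher. In DKO static cells Col2a1 at 1819 and Col10a1 at 602 CPM held most of the sum. Hapln1 was lower (11.4 ± 0.981 against 35.4 ± 1.80 CPM), and Acan was at 4.97 ± 1.40 against 5.96 ± 1.47 CPM. Of 6 blood cell and osteoclast markers, Ptprc, Acp5 and Itgam had at most 4 counts in any library. Cd68 was at 2.32 ± 0.229 CPM in DKO and 25.5 ± 2.43 CPM in control static cells and Ctsk at 56.2 ± 1.66 and 76.7 ± 2.11 CPM, both lower in DKO cells, while Csf1r was higher from 24 counts or fewer. With FFSS in control cells the summed osteocyte markers went from 18998 to 23004 CPM in static to 6327 to 19537 CPM in FFSS libraries, which overlap. Col1a1, with a mean of 17133 CPM in control static and 8558 CPM in control FFSS cells, held most of this sum. Of the 9, 1 rose and 1 fell, where 17.7% of all genes rose and 18.1% fell. Col1a1 fell by 1.00 on the log2 scale (adjusted p = 0.0496) and Pdpn rose by 0.63. The chondrocyte sum went from 129 to 154 to 59.4 to 126 CPM, without overlap, with 1 of 7 passing, Sox9, which fell by 0.52. In control static cells Sox9 (78.9 CPM) and Hapln1 (35.4 CPM) held most of that sum. The blood cell sum, mostly Ctsk and Cd68, went from 99.9 to 105 to 67.3 to 99.3 CPM, also without overlap. All 3 of its tested genes passed, read against the same shares of all genes. Csf1r rose by 1.43 from 24 counts or fewer, and Cd68 (−0.50) and Ctsk (−0.37) fell. In the DKO groups these sums were 60931 to 68297, 2054 to 3012 and 55.6 to 60.8 CPM. The part of these markers in the results below was not tested, and in bulk RNA fewer cells of a type and less RNA per cell cannot be told apart.

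The first question was which members were most abundant. Levels were compared between genes as RPKM, which is CPM per kilobase of exon that could be counted. Junb was highest and Jund second in all 4 groups, and Fos and Fosb were lowest. In control static cells Junb was at 81.0 ± 5.14 RPKM, Jund at 68.6 ± 3.74, Fosl1 at 36.1 ± 3.72, Fosl2 at 31.5 ± 1.02, Jun at 28.0 ± 1.61, Atf3 at 18.5 ± 1.76, Fos at 5.86 ± 0.159 and Fosb at 1.18 ± 0.0195 RPKM (SD, n = 3). Neighbours in this order did not overlap between libraries, except Fosl1 and Fosl2. In control FFSS cells Junb stood at 106 ± 11.0 RPKM. There Jund overlapped Fosl1, Fosl1 overlapped Jun and Jun overlapped Fosl2, whereas Fosl2 did not overlap Atf3. In DKO static cells Junb was at 80.4 ± 8.68 RPKM and Jund at 48.2 ± 5.22, followed by Fosl2 at 26.4 ± 0.859, Atf3 at 13.5 ± 1.88, Jun at 10.4 ± 0.547, Fosl1 at 8.23 ± 1.795, Fos at 5.88 ± 0.142 and Fosb at 0.598 ± 0.112 RPKM. Jun and Fosl1 overlapped there. The DKO FFSS order was the same, with Junb at 117 ± 6.92 RPKM and no overlap between neighbours.

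**Figure D1:**
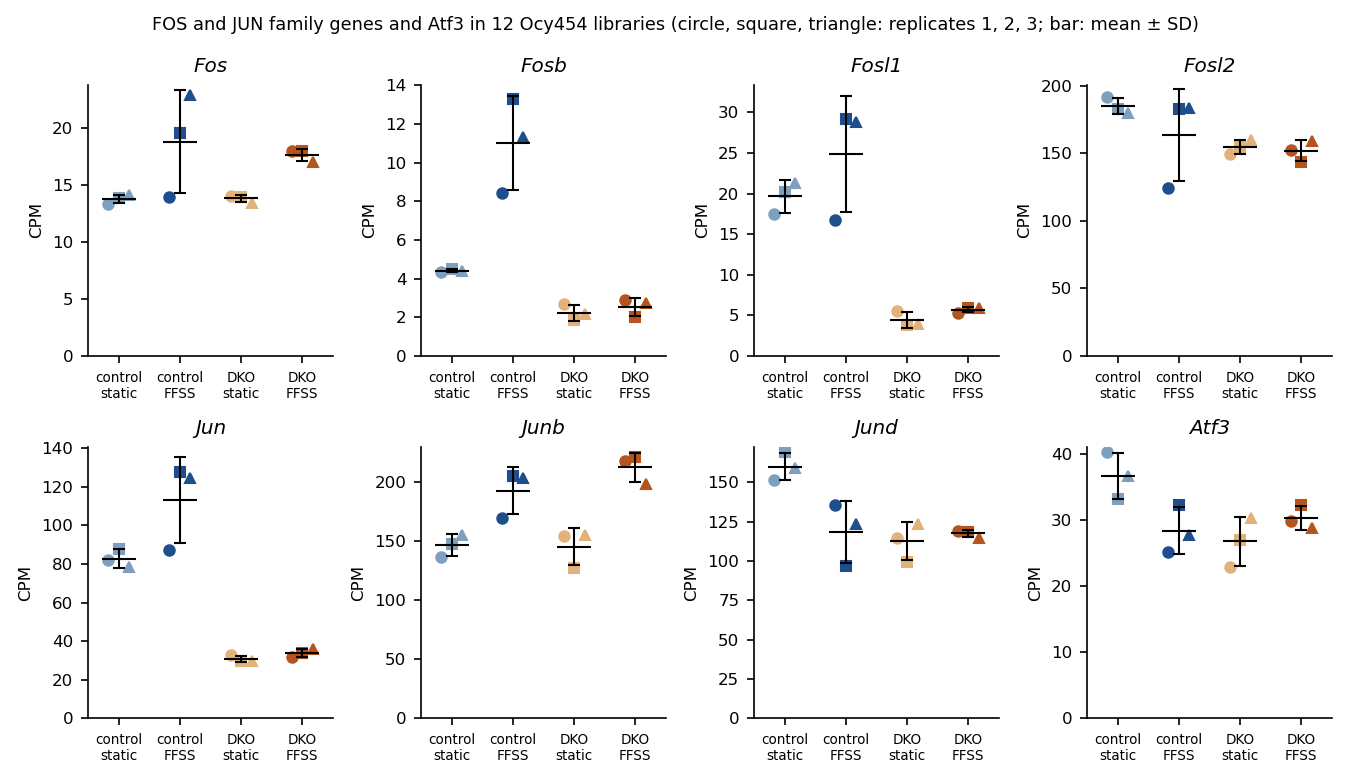
Normalised level (CPM, linear axis from 0) of each member in the 12 libraries, by group, with each point a library and black bars the mean ± SD of 3. Fosl1, Jun and Fosb were lower in every DKO library than in every control library, and control FFSS replicate 1 (circle) lies apart from replicates 2 and 3 for most members.

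FFSS against static in control cells asked which members differed after 3 h of flow. Fosb, Fos, Jun and Junb rose, Jund and Atf3 fell, and Fosl1 and Fosl2 did not pass the test. The members that rose were 4 of 8, where 17.7% of all genes tested rose, and those that fell were 2 of 8, where 18.1% of all genes fell. Fosb passed the 2-fold limit used in the study, which 5.93% of all genes passed. The median log2 fold change was 0.37 over the members and 0.0073 over all genes. A member passes here at a Benjamini-Hochberg adjusted p under 0.05 in edgeR's quasi-likelihood test over all genes, and every adjusted p below is from that test unless another is named.

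Fosb, which encodes a FOS protein and a truncated form known from brain and bone, was at 4.33, 4.48 and 4.42 CPM in control static replicates 1 to 3 and at 8.43, 13.3 and 11.3 CPM in control FFSS replicates 1 to 3. All 3 FFSS libraries were above all 3 static ones. It rose 2.50-fold (log2 fold change 1.32, SE 0.17, adjusted p = 0.000131). The counts behind it were 82 to 86 in static and 164 to 272 in FFSS libraries.

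Fos, the best known immediate early gene, was at 13.4, 13.9 and 14.1 CPM in static and at 13.9, 19.6 and 22.9 CPM in FFSS cells. FFSS replicate 1 lay within the static range and the other two above it. The log2 fold change was 0.45 (SE 0.13, adjusted p = 0.0198). This call was lost in 7 of 21 alternatives, 1 of them the covariate fit described below. In the fit of these 6 libraries alone the adjusted p was 0.102, and without each control static library or control FFSS replicate 2 or 3 the adjusted p lay between 0.0505 and 0.102, for log2 fold changes of 0.28 to 0.47. Without control FFSS replicate 1 it was 0.62 (adjusted p = 7.28e-07).

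Jun, the founding member of its family and a strong activator, stood at 82.1, 87.9 and 78.4 CPM in static and at 87.4, 128 and 125 CPM in FFSS cells. Replicate 1 again fell within the static range and replicates 2 and 3 above it. Its log2 fold change was 0.45 (SE 0.11, adjusted p = 0.00939), and 0.61 without replicate 1. With the 6 libraries alone the adjusted p was 0.0646.

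Junb, the most abundant member, which often restrains JUN activity, was at 137, 147 and 155 CPM in static and at 169, 205 and 203 CPM in FFSS cells. Here all FFSS libraries lay above all static ones, replicate 1 included. Junb rose 1.31-fold (log2 fold change 0.39, SE 0.09, adjusted p = 0.00491).

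Jund, the JUN gene that is usually present in resting cells and responds little to stimuli, moved the other way. It was at 152, 169 and 160 CPM in static and at 136, 96.7 and 124 CPM in FFSS cells, with all FFSS libraries below all static ones. Its log2 fold change was −0.43 (SE 0.11, adjusted p = 0.00814). Atf3 was at 40.2, 33.2 and 36.7 CPM in static and at 25.2, 32.3 and 27.7 CPM in FFSS cells, likewise without overlap. Atf3 fell by 0.37 on the log2 scale (SE 0.11, adjusted p = 0.0208), a call lost in 5 of 21 alternatives, including library totals alone (−0.24, adjusted p = 0.13), the 6 libraries alone (−0.36, adjusted p = 0.0694), and the fits without control static replicate 1 (−0.29), control static replicate 3 (−0.37) or control FFSS replicate 3 (−0.35).

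Fosl1 and Fosl2 encode FRA1 and FRA2, which lack the activation domain of FOS. Fosl1 was at 17.4, 20.3 and 21.4 CPM in static and at 16.7, 29.2 and 28.8 CPM in FFSS cells, with replicate 1 below all static libraries and replicates 2 and 3 above them. Its log2 fold change was 0.34 (SE 0.18, adjusted p = 0.17), and of 21 alternatives it passed in 1, without replicate 1 (0.56, adjusted p = 1.26e-05), where 55.2% of all genes passed. Ccdc85b, the gene overlapping it, fell over the same libraries by 0.44 on the log2 scale (adjusted p = 0.000864). Fosl2 was at 191, 183 and 180 CPM in static and at 124, 182 and 183 CPM in FFSS cells. Only replicate 1 differed from the static range, on the low side, and the log2 fold change was −0.18 (SE 0.12, adjusted p = 0.25).

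Because the share of reads outside genes moved with FFSS, it was also entered as a covariate. The log2 fold changes in control cells then were −0.097 for Fos, −0.011 for Jun and −0.36 for Fosl1, none of which passed, and 0.19 for Junb and −0.24 for Jund, which no longer passed. Fosb at 0.88 (adjusted p = 0.0053) and Atf3 at −0.53 (adjusted p = 0.0333) still passed, and Fosl2 passed at −0.67 (adjusted p = 5.04e-06). With the 4 groups also in the fit, the adjustment is set by how this share varies among libraries of the same group. That variation was widest in control FFSS cells (SD 2.20), with replicate 1 at 5.87% and replicates 2 and 3 at 9.19% and 10.04%. The SD was 0.323 for DKO FFSS libraries and lower still for static ones. The covariate values thus rest largely on replicate 1 and are no independent check on the share. This share also differs between the groups, so its part and that of FFSS cannot be fully told apart.

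**Figure D2:**
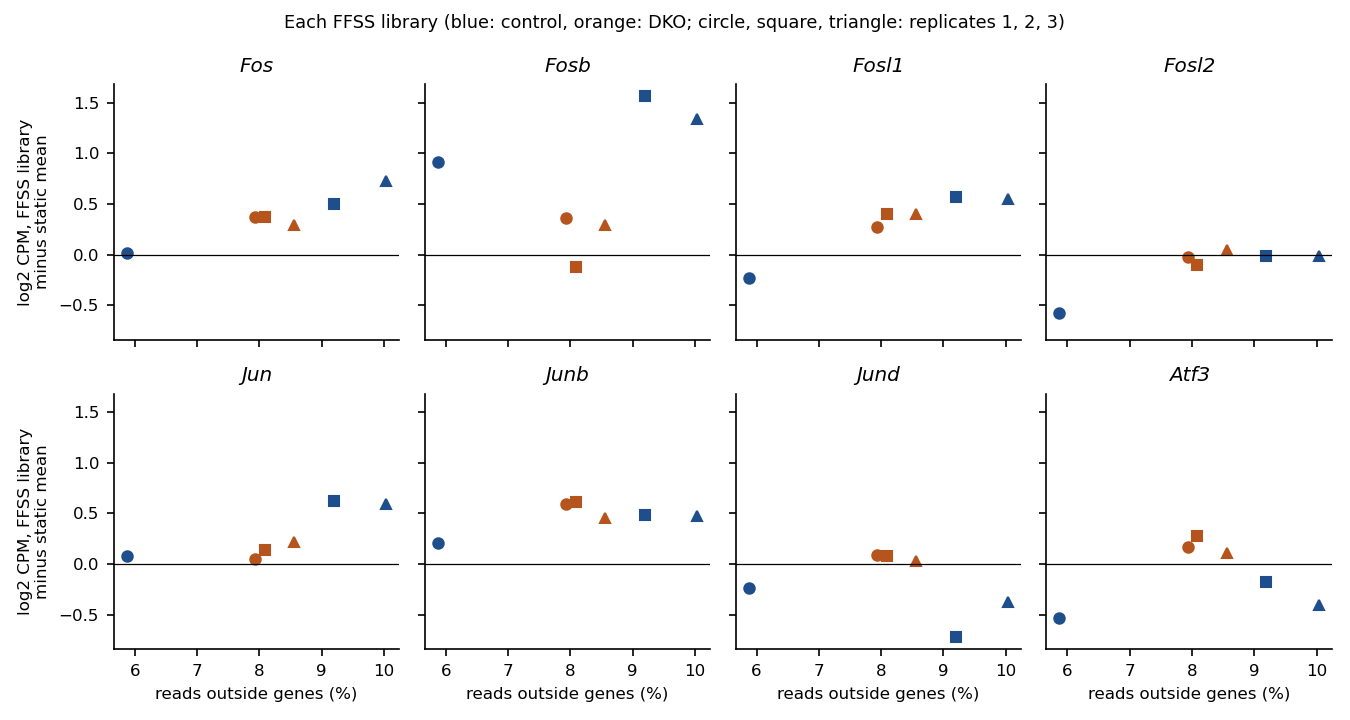
Log2 CPM of each FFSS library minus the mean of the static libraries of its genotype (y axis) against the share of reads outside genes in that library (x axis, %), for each member. The 3 control libraries (blue) spread from 5.87% to 10.04%, and replicate 1 has a value near 0 or below for Fos, Jun, Fosl1 and Fosl2, while Fosb and Junb are above 0 in all 3.

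In DKO cells the same comparison gave 1 member that passed, Junb. That is 1 of 8 higher, where 0.376% of all genes were higher, and 0 of 8 lower, where 0.497% were lower. At an unadjusted p under 0.05 in edgeR, Fos was higher as well, and none was lower. No member passed the 2-fold limit, which 0.0872% of all genes passed. The median log2 fold change over the members was 0.18, and −0.0094 over all genes.

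Junb was at 154, 127 and 155 CPM in DKO static replicates 1 to 3 and at 218, 221 and 198 CPM under FFSS, with no overlap. It rose 1.46-fold (log2 fold change 0.55, SE 0.09, adjusted p = 0.0139). Its adjusted p was 0.0543 without DKO static replicate 2, 0.0802 without DKO FFSS replicate 1 and 0.104 without DKO FFSS replicate 2, with log2 fold changes between 0.46 and 0.53, so the call, unlike the direction, rested on these libraries.

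Fos was at 14.1, 13.9 and 13.4 CPM in DKO static and at 18.0, 18.0 and 17.0 CPM in DKO FFSS cells. All FFSS libraries lay above all static ones, but the log2 fold change of 0.35 (SE 0.14) had an adjusted p of 0.273. In the fit of the 6 DKO libraries alone, which leaves out the wide control FFSS spread, it was 0.36 (adjusted p = 0.00363), and without control FFSS replicate 1 it was 0.35 (adjusted p = 0.00593).

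Fosb remained low in DKO cells, at 2.69, 1.87 and 2.17 CPM in static and 2.88, 2.02 and 2.74 CPM in FFSS libraries, from 34 to 52 counts. These ranges overlap, and the log2 fold change was 0.19 (SE 0.22, adjusted p = 0.809). Jun was at 32.7, 29.9 and 29.8 CPM in static and 32.0, 33.9 and 35.8 CPM in FFSS cells, also overlapping (0.14, SE 0.12, adjusted p = 0.718). Jund was at 114, 99.6 and 124 CPM in static and 119, 118 and 115 CPM in FFSS cells, the latter inside the static range (0.062, SE 0.11, adjusted p = 0.878).

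For Atf3 the values were 22.9, 27.1 and 30.4 CPM in static and 29.9, 32.3 and 28.8 CPM in FFSS cells, overlapping at the static replicate 3 (0.18, SE 0.11, adjusted p = 0.567). Fosl1 had 5.61, 3.84 and 4.0 CPM in static and 5.36, 5.89 and 5.87 CPM in FFSS cells (0.35, SE 0.24, adjusted p = 0.603). Fosl2 had 150, 154 and 160 CPM in static and 153, 144 and 159 CPM in FFSS cells (−0.026, SE 0.12, adjusted p = 0.959), and with the share of reads outside genes as covariate it passed as lower (−0.18, adjusted p = 0.0299). None of the 3 separated the conditions by library.

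Whether the FFSS effect differed between genotypes was tested as an interaction, in which the control effect is subtracted from the DKO effect. Fosb passed. It was 1 of 8 members with a lower effect in DKO cells, where 1.68% of all genes were lower, and 1 past 2-fold, where 0.651% were. Of the members, 0 of 8 were higher, where 2.28% of all genes were higher, and Jund and Atf3 had an unadjusted p under 0.05 in edgeR. The median interaction over the members was 0.080, and −0.017 over all genes.

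Relative to the mean of static libraries, Fosb in control FFSS replicates 1 to 3 differed by 0.92, 1.57 and 1.34 on the log2 CPM scale, and in DKO FFSS replicates by 0.36, −0.13 and 0.29. The 2 sets do not overlap. The interaction was −1.13 (SE 0.29, 95% interval −1.75 to −0.52, adjusted p = 0.0434). Its direction held in all 20 alternatives but its call in 6, with adjusted p between 8.10e-05 (without control FFSS replicate 1) and 0.13 (without DKO static replicate 1). It was lost without any 1 of the other 11 libraries, with limma-voom (adjusted p = 0.0798), with the covariate (−0.84, adjusted p = 0.064) and with a replicate block (adjusted p = 0.0718).

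The estimates for Jund and Atf3 had opposite signs in the 2 genotypes, but neither gene passed in DKO cells, and their interactions did not pass. For Jund the control libraries were at −0.24, −0.73 and −0.37 and the DKO libraries at 0.09, 0.08 and 0.04 (interaction 0.49, SE 0.15, adjusted p = 0.0848). For Atf3 they were at −0.54, −0.18 and −0.40 and at 0.17, 0.28 and 0.11 (0.55, SE 0.16, adjusted p = 0.0736). In both genes every control library was below 0 and every DKO library above it. Jund passed in 2 of 20 alternatives, with DESeq2 (0.51, adjusted p = 0.0299) and without control FFSS replicate 1 (0.60). Atf3 passed in 5, these 2 (0.56, adjusted p = 0.0261, and 0.47), no filter (0.56, adjusted p = 0.031), the covariate (0.66, adjusted p = 0.0238) and the fit without control FFSS replicate 2 (0.65, adjusted p = 0.0454). Jun also passed without control FFSS replicate 1, where 37.8% of all genes passed.

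For the other members the interval of the interaction contained 0. It was −0.68 to 0.05 for Jun, −0.12 to 0.43 for Junb, −0.51 to 0.32 for Fos, −0.62 to 0.63 for Fosl1 and −0.20 to 0.51 for Fosl2. Fosl2 passed in 1 of 20 alternatives, the covariate (0.48, adjusted p = 0.000625), and was −0.012 without control FFSS replicate 1. These widths leave room for differences as large as the FFSS effect itself, so no likeness of the genotypes follows.

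**Figure D3:**
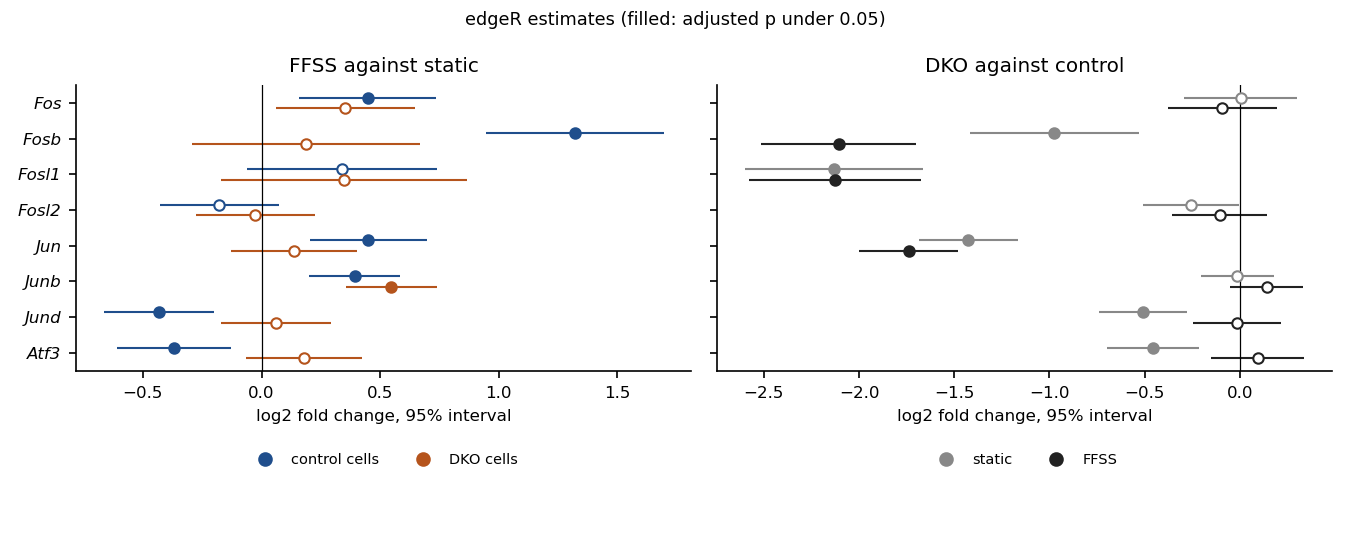
edgeR log2 fold changes of the 8 members with 95% intervals, for FFSS against static in each genotype (left) and DKO against control in each condition (right), with filled points for an adjusted p under 0.05. Fosb at 1.32 is the highest FFSS estimate, and Fosl1, Jun and Fosb have the lowest DKO estimates in both conditions.

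DKO against control cells was compared within each condition. In static cells Fosl1, Jun, Fosb, Jund and Atf3 were lower in DKO cells, and Fos, Junb and Fosl2 did not pass. That is 5 of 8 lower, where 27.2% of all genes were lower, and 0 of 8 higher, where 27% were higher. Fosl1 and Jun passed the 2-fold limit, which 15.3% of all genes passed. The median log2 fold change was −0.48 over the members and 0.01 over all genes. These 5 calls held in all 21 alternatives.

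Per library, Fosl1 ranged from 17.4 to 21.4 CPM in control static cells and from 3.84 to 5.61 CPM in their DKO counterparts, well apart. The log2 fold change was −2.13 (SE 0.22, adjusted p = 3.06e-06), a level 0.228 of that in control cells. Ccdc85b, the gene overlapping Fosl1, was also lower in DKO static cells, by 1.19 on the log2 scale (SE 0.08, adjusted p = 1.81e-08). Ccdc85b lay at 57.5 to 65.3 CPM in control and at 24.6 to 28.2 CPM in DKO static libraries. Its part in the Fosl1 value was not tested.

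Jun, at 78.4 to 87.9 CPM for control and 29.8 to 32.7 CPM for DKO static libraries, did not overlap either. Its log2 fold change of −1.43 (SE 0.12, adjusted p = 4.20e-07) corresponds to 0.372 of the control level. Fosb lay at 4.33 to 4.48 against 1.87 to 2.69 CPM (−0.97, SE 0.21, adjusted p = 0.00112). No DKO library reached any control library for either gene.

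Smaller differences were seen for Jund, at 152 to 169 against 99.6 to 124 CPM (−0.51, SE 0.11, adjusted p = 0.00124), and for Atf3, at 33.2 to 40.2 against 22.9 to 30.4 CPM (−0.45, SE 0.11, adjusted p = 0.00346). Both were lower in every DKO static library. Fosl2 was lower in every library too, at 180 to 191 against 150 to 160 CPM, without passing (−0.26, SE 0.12, adjusted p = 0.0791). It passed in 3 of 21 alternatives, the 6 static libraries alone (adjusted p = 7.78e-06), the fit without control FFSS replicate 1 (adjusted p = 1.91e-05) and the covariate (−0.54, adjusted p = 5.76e-08). Fos (0.0043, 95% interval −0.29 to 0.30, adjusted p = 0.981) and Junb (−0.012, interval −0.21 to 0.18, adjusted p = 0.925) overlapped between genotypes. With the covariate Fos passed as lower (−0.31, adjusted p = 0.0125), giving 7 of 8 members where 58.1% of all genes passed.

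Under FFSS, Fosb, Fosl1 and Jun were lower in DKO cells, 3 of 8 where 29.6% of all genes were lower, and all 3 passed 2-fold, which 17.2% of all genes passed. None of the 8 was higher, where 27% of all genes were higher. The median over the members was −0.099 and over all genes −0.051. Fosb was at 8.43 to 13.3 CPM in control and 2.02 to 2.88 CPM in DKO FFSS libraries (log2 fold change −2.11, SE 0.19, adjusted p = 4.56e-07). Jun was at 87.4 to 128 against 32.0 to 35.8 CPM (−1.74, SE 0.12, adjusted p = 6.32e-08), and Fosl1 at 16.7 to 29.2 against 5.36 to 5.89 CPM (−2.13, SE 0.21, adjusted p = 2.28e-06). Each of the 3 was separated by genotype in every library, and each call held in all 21 alternatives.

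Jund and Atf3, lower in DKO static cells, overlapped between genotypes under FFSS. Jund had a log2 fold change of −0.013 (SE 0.11, adjusted p = 0.929) and Atf3 of 0.095 (SE 0.11, adjusted p = 0.501). Fos (−0.092), Fosl2 (−0.11) and Junb (0.14) overlapped as well. Without control FFSS replicate 1, Fos at −0.27 (adjusted p = 0.00792) and Fosl2 at −0.27 (adjusted p = 4.19e-05) passed, giving 5 of 8 where 65.2% of all genes passed. The static and FFSS comparisons use different libraries, but each shares its libraries with the FFSS contrasts above.

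Which AP-1 dimers can form depends on the proteins present, which were not measured. The mixture of the members' mRNAs was described by shares of summed RPKM, with no test. Jun made up 14.7% to 16.5% of the JUN family in control static, 16.3% to 21.8% in control FFSS, 6.78% to 8.22% in DKO static and 5.93% to 7.09% in DKO FFSS libraries. Junb made up 44.4% to 47.5%, 51.7% to 57.3%, 57.1% to 58.6% and 64.1% to 66.3% in the same order. The Junb share was thus lowest in control static and highest in DKO FFSS libraries, with no overlap between these 2 groups. The ratio of Junb to Jun was 2.72 to 3.24 in control static and 2.63 to 3.17 in control FFSS cells, and 6.95 to 8.49 and 9.04 to 11.1 in the DKO groups.

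Among the FOS genes, Fosl1 made up 44.8% to 50.9% in control static and 51.1% to 55.5% in control FFSS cells, but 17.7% to 24.2% and 22.2% to 24.8% in DKO cells. Fosl2 took the larger share in DKO cells, 60.0% to 66.7% in static and 56.4% to 59.2% under FFSS, against 39.8% to 45.7% and 32.2% to 35.3% in control cells. The summed FOS family was 0.411 to 0.426 of the summed JUN family in control static, 0.331 to 0.489 in control FFSS, 0.275 to 0.324 in DKO static and 0.236 to 0.269 in DKO FFSS libraries. Shares with Fosl1 depend on the 545 bases taken as its countable length.

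**Figure D4:**
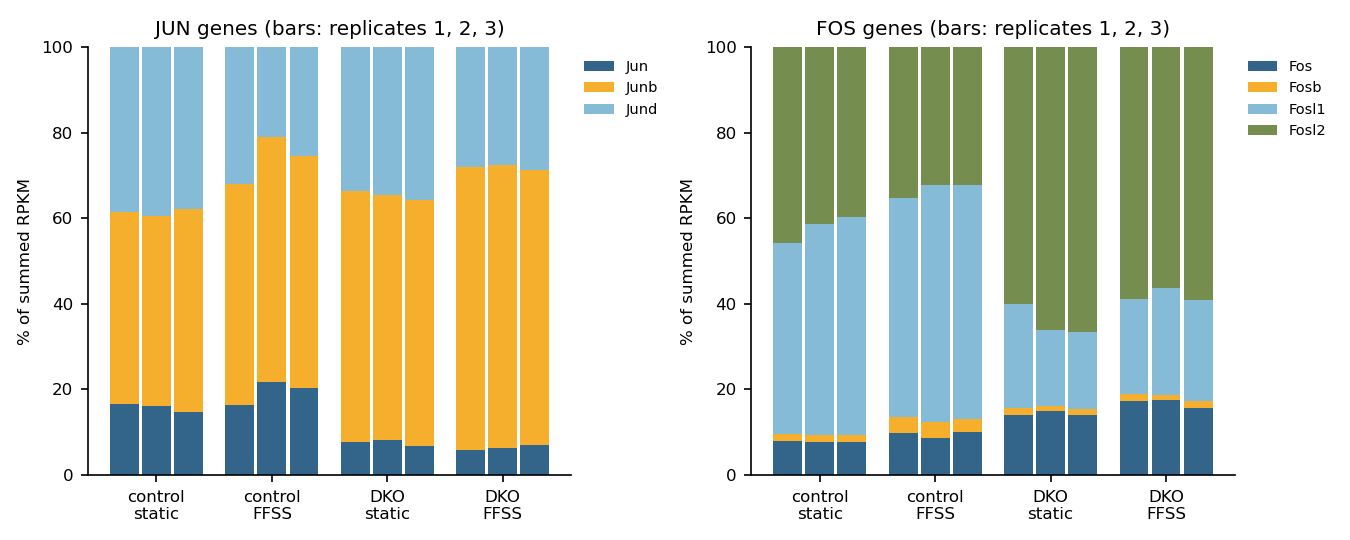
Share of each gene in the summed RPKM (%) of the JUN family (left) and the FOS family (right), with 1 bar per library. The Jun share was 14.7% or more in each control library and 8.22% or less in each DKO library, and Fosl2 was the largest FOS share in each DKO library, whereas Fosl1 was the largest in 5 of 6 control libraries.

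Across the 12 libraries the members fell into sets with similar profiles of log2 CPM. Pearson's r was 0.988 between Fosl1 and Jun, 0.929 between Fosb and Jun and 0.897 between Fosb and Fosl1, and 0.833 between Fos and Junb. Jun and Junb had r = 0.058. These are descriptions over libraries that share genotype and treatment. Among 10973 protein-coding genes, the 2 most like each member were Trim30a (0.996) and Lgals9 (0.995) for Jun, Twist2 (0.992) and Il4ra (0.989) for Fosb, Cdk10 (0.991) and Plekho2 (0.990) for Fosl1, and Rab3gap2 (0.976) and Lass6 (0.936) for Fosl2. For Jund they were Pgp (0.973) and Bckdk (0.964), for Fos Rpl10a (0.965) and Pprc1 (0.962), for Junb Sbno2 (0.917) and Polr3e (0.915), and for Atf3 1500012F01Rik (0.866) and Trpv2 (0.842).

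Of 11 tested IDs of other leucine zipper partners, 1 rose and 3 fell with FFSS in control cells, where 17.7% and 18.1% of all genes did. The small MAF gene Mafk rose by 0.67 on the log2 scale, and Jdp2, a repressor that pairs with JUN, fell by 0.43. The less abundant of 2 Atf7 gene IDs fell by 0.32 and the other did not pass (0.056, adjusted p = 0.758). In DKO cells 0 of 11 passed in edgeR, where 0.376% of all genes rose and 0.497% fell, and 2, both lower, had an unadjusted p under 0.05. Against control static cells, Batf3 was higher (0.79), and Maff (−0.75) and Jdp2 (−0.56) were among the 3 lower in DKO static cells, where 27% and 27.2% of all genes were higher and lower. The list's median in control FFSS was −0.077.

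Among 17 kinases and transcription factors that act on FOS and JUN, 4 rose and 3 fell with FFSS in control cells, where 17.7% and 18.1% of all genes did. The ETS factors Elk3 (0.48) and Elk4 (0.29), which act with SRF at the Fos promoter, rose, and the kinases Map3k1 (−0.66) and Map2k1 (−0.54) fell. In DKO cells 1 passed, which was lower, where 0.497% of all genes fell. Compared with control static cells, 2 were higher, Elk3 (0.43) and Map2k4 (0.23), and 6 lower, with Srf itself (−0.70) and Map2k1 (−0.55) the lowest, where 27% and 27.2% of all genes were. Of 6 proteins that bind AU-rich mRNAs, 2 rose in control FFSS cells, Hnrnpd (0.61) and Khsrp (0.21), and 1 fell, Zfp36l1 (−0.94), where 17.7% and 18.1% of all genes did. In DKO static cells Hnrnpd was higher (0.70), and Zfp36l2 (−0.83), Zfp36 (−0.34) and Elavl1 (−0.16) were lower, where 27% and 27.2% of all genes were.

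Of 14 tested genes from a list of 16 textbook AP-1 targets, 9 rose and 2 fell with FFSS in control cells, where 17.7% and 18.1% of all genes did, with a median log2 fold change of 0.44 against 0.0073 over all genes. Hmga1, a chromatin protein, rose the most (1.42, adjusted p = 0.000282), followed by Il6 (0.98, from 17 counts or fewer). The heme oxygenase Hmox1 (−0.72) and the prostaglandin synthase Ptgs2 (−0.38) fell. In DKO cells 1 of 14 passed, Hmox1, which rose by 0.38, where 0.376% of all genes rose. At an unadjusted p under 0.05 in edgeR, 4 were higher and 0 lower. The interaction passed for 3 of 14, higher for Hmox1 (1.11, SE 0.11, adjusted p = 0.000241) and lower for Timp1 (−0.48, adjusted p = 0.0193) and Ccnd1 (−0.49, adjusted p = 0.0157), where 2.28% of all genes were higher and 1.68% lower. In DKO static cells 6 were higher and 6 lower than in control cells, where 27% and 27.2% of all genes were. The matrix genes Spp1 (2.31) and Mmp13 (2.30) were higher, and Mmp9 (−2.01) and Hmox1 (−1.45) lower. The 2 genes not tested, removed by the filter on 0 counts, were Mmp3, at 1.09 CPM in control static and 0 in DKO static cells, and Mmp10, at 0.297 and 0.019 CPM.

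**Figure D5:**
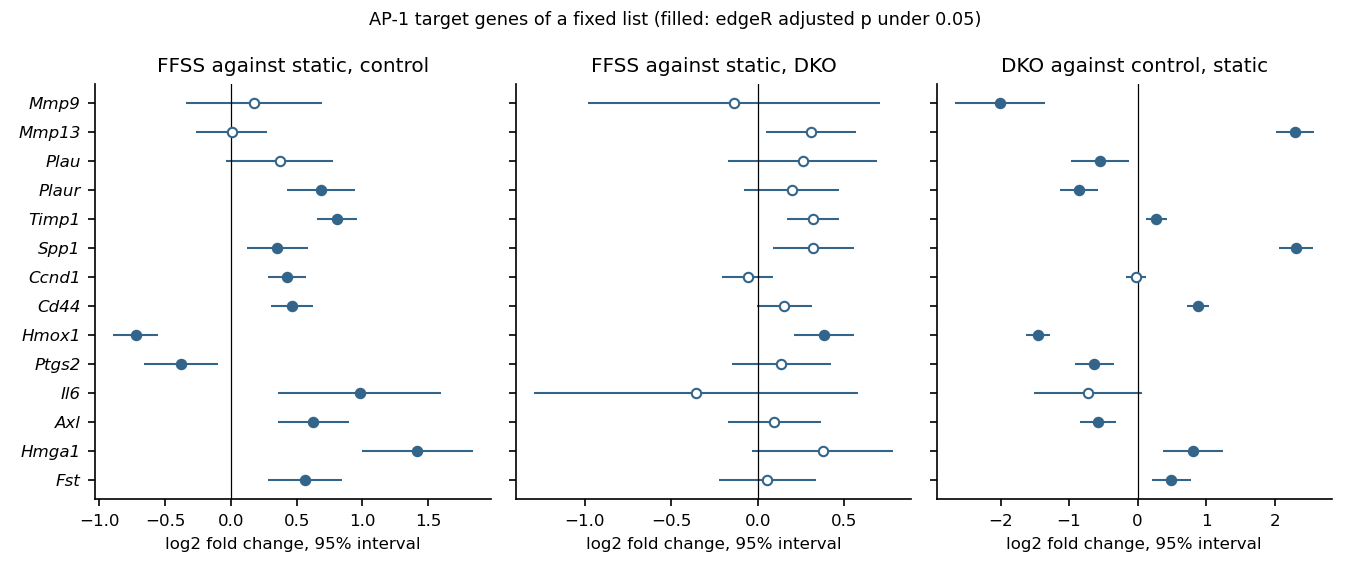
edgeR log2 fold changes with 95% intervals of 14 AP-1 target genes in 3 comparisons, with filled points for an adjusted p under 0.05. In control cells 9 rose and 2 fell with FFSS, in DKO cells Hmox1 alone passed, and against control static cells 6 were higher and 6 lower in DKO cells.

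Other immediate early genes were compared next. Of 12, 3 rose and 3 fell with FFSS in control cells, where 17.7% and 18.1% of all genes did. Egr3 (0.53) and Ier5 (0.31) rose, and the Kruppel-like factors Klf2 (−1.10) and Klf4 (−1.16) fell. In DKO cells 2 rose, Ier2 (0.46, adjusted p = 0.0067) and Egr1 (0.47, adjusted p = 0.0414), as Junb did among the members, where 0.376% of all genes rose. In DKO static cells 4 were higher than in control cells, led by the nuclear receptors Nr4a3 (3.48) and Nr4a2 (1.799), and 6 lower, with Klf4 (−1.05) and Ier3 (−0.78) the lowest, where 27% and 27.2% of all genes were. None of the 12 passed the interaction test in edgeR, where 4 higher and 1 lower had an unadjusted p under 0.05. That 1 of 8 members passed it is a difference that was not itself tested.

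Genes of the integrated stress response, the programme of translation control and amino acid supply in which Atf3 is induced, were the last list. Of 10, 0 rose and 8 fell with FFSS in control cells in edgeR, where 18.1% of all genes fell, and none rose at an unadjusted p under 0.05. The mTORC1 inhibitor Ddit4 (−1.67) and the secreted factor Gdf15 (−1.15) were lowest, and Atf3 fell by 0.37. In DKO cells 1 passed, Ddit4, which fell by 1.19, where 0.497% of all genes fell. The interaction passed for 4 of 10, all higher, where 2.28% of all genes were higher. They were Gdf15 (0.97, adjusted p = 0.019), the pseudokinase gene Trib3 (0.91, adjusted p = 0.00316), the transcription factor Atf4 (0.63, adjusted p = 0.00456) and Ddit3, which encodes CHOP (0.49, adjusted p = 0.047), beside 0.55 for Atf3, which did not pass. In DKO static cells 8 were lower than in control cells, where 27.2% of all genes were, led by Ddit4 (−2.76) and Trib3 (−2.01), and Gdf15 was higher (0.70). The list was not tested as a set.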

How the data were processed

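RNA-seq was performed on 12 Ocy454 libraries, for which the study's methods describe isolating mRNA from the collected total RNA. Per the labels and the study's methods, the authors aligned short single-end reads with STAR to mm9 and counted them per Ensembl gene with HTSeq, without strand. The deposited values are raw counts, neither normalised nor filtered. Reads in stretches shared by opposite genes or aligned to several places are lost. The 5 HTSeq summary lines were kept out of library sizes and tests. Groups come from the sample titles. The members and lists were chosen with earlier results of these data known.

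The main test was the quasi-likelihood test of edgeR 4.0.16 (R 4.3.3), fitted robustly to counts of the 4 groups together, with TMM factors and Benjamini-Hochberg adjustment. Following the study, genes with 0 counts in 2 or more libraries were removed, leaving 14904 of 24360 with any count, and a 2-fold limit is given beside the calls. All groups share 1 estimate of the spread, which control FFSS replicate 1 widens. CPM used TMM-scaled totals and log2 CPM a prior count of 2. An mm9 annotation gave symbols for 37168 IDs (98.9%) and exon lengths. For each list, counts passing are given, with up to 2 highest and 2 lowest passing genes in the control FFSS and DKO static comparisons and, chosen after their values were seen, some others, and for each member the 2 genes most like it with mean log2 CPM above 1. The script was tested on simulated data. Alternatives were RLE factors, library totals, other filters, 6-library fits, DESeq2 1.42.0, limma-voom (limma 3.58.1), a replicate block, the share of reads outside genes as covariate, and each library left out. Exact permutation tests used scipy.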

Additional observations from a re-analysis of the deposited data

Results flagged for a closer look

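The FFSS effect on Fosb differed between genotypes, at −1.13 on the log2 scale (DKO minus control), by the interaction test given above. That call was lost in 14 of 20 alternatives.

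Reads outside annotated genes, which enter gene comparisons only through the covariate, averaged 8.37% in control FFSS and 8.19% in DKO FFSS libraries. These shares were above 5.13% ± 0.0616 and 7.11% ± 0.0363 in the static libraries of each genotype (SD, n = 3). Of the 3 control FFSS libraries, replicate 1 had the lowest such share, the lowest CPM of each member but Jund and the highest of Jund. The part of these reads in the results was not tested beyond the covariate, a fit that rests largely on replicate 1.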

How the results depend on the processing

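Of 832 values under alternatives, 746 kept their direction and side of the threshold, 31 lost a call and 19 gained one in the same direction, and 36 reversed, and the cause was not tested. Members passing were 6 with FFSS in control cells, 1 past 2-fold, 3 in the 6-library fit and 3 with the covariate. In DKO cells they were 1, then 0 past 2-fold, 2 in the 6-library fit, 2 with the covariate and 0 to 2 with a library left out. For the interaction they were 1, then 2 with no filter, 3 with DESeq2, 0 with limma-voom, 2 with the covariate and 0 to 4 with a library left out. The interaction cannot be fitted on 6 libraries. DKO against control gave 5 in static cells, 2 past 2-fold and 7 with the covariate, and 3 under FFSS, 3 with the covariate and 3 to 5 when a library was left out. The share of all genes passing also differed between fits and is not given here for each. A moved count is therefore no result about the members themselves.

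With the replicate block the interaction had 0 members passing. Same-numbered libraries had a mean correlation of deviations from their group means of 0.00226, and differently numbered ones −0.00116. Deviations within a group sum to 0, so these values are not independent of each other. They show no sign of pairing by number, which does not exclude it.

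Reversed values with the covariate were −0.097 (Fos), −0.36 (Fosl1) and −0.011 (Jun) in control FFSS, −0.011 (Jun) in DKO FFSS, 0.28 (Fos) for the interaction and −0.31 (Fos, adjusted p = 0.0125 in edgeR) in DKO static. Library totals alone, which shifted the median of all genes to 0.13 in control FFSS, −0.13 in the interaction and −0.25 between genotypes under FFSS, gave −0.12 (Fosl1) for the interaction, −0.078 (Fos) in DKO static, and −0.059 (Junb) and −0.11 (Atf3) between genotypes under FFSS. With a library left out, ranges that crossed 0 were, in DKO FFSS, −0.061 to 0.012 (Fosl2) and −0.019 to 0.13 (Jund), for the interaction −0.27 to 0.069 (Fos), −0.21 to 0.20 (Fosl1) and −0.012 to 0.24 (Fosl2), between genotypes in static cells −0.014 to 0.027 (Fos) and −0.057 to 0.075 (Junb), and under FFSS −0.27 to 0.074 (Fos) and −0.14 to 0.094 (Jund). Fosl1's interaction was −0.011 with filterByExpr. Jund under FFSS was 0.0010 with RLE, 0.0004 with no filter, 0.0032 in the 6-library fit, 0.0009 with DESeq2 and 0.0019 with limma-voom.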
